A study of Mus musculus with 6 samples.

Results

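The genes described here mark the cells that build blood and lymph vessels in fat. They are 35 genes taken by name in 3 classes, and all 35 were found among the 12394 genes tested on the arrays. Blood endothelium, the inner lining of blood vessels, had 18 members, lymphatic endothelium 4 and mural cells 13. Mural cells are the smooth muscle cells and pericytes wrapped around that lining, and their members were split further into 7 contractile genes and 6 pericyte genes. Each gene was read from 1 probe set, the one with the highest mean log2 value over the 6 arrays.

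The arrays measured subcutaneous white fat (labelled IWAT) of mice in 2 groups of 3. Mice of the YY1bKO group had both copies of Yy1 flanked by loxP sites (YY1flox/flox), the gene of a zinc finger protein that binds and regulates many promoters, and also had Ucp1Cre, a Cre recombinase driven by sequences of the brown and beige adipocyte gene Ucp1. Control mice carried the floxed alleles without Ucp1Cre. All mice were 8 weeks old, of a mixed C57BL6 and 129 background, and had eaten a high fat diet for 2 weeks. The labels call YY1bKO a brown fat specific knockout, so vessel cells are not the cells in which deletion was intended. They name no group with Ucp1Cre and without floxed Yy1, and do not say whether replicates were separate animals, so the tests measure the spread between these samples. The comparison asks how vascular genes of white fat differ when the knockout acts in thermogenic adipocytes, under a series title about secreted proteins, energy expenditure and obesity.

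Vessels in adipose tissue carry fatty acids and hormones to and from adipocytes, and brown and beige fat is known for its dense capillary bed. Vascular endothelial growth factors act on endothelial receptors encoded by Kdr and Flt1 to start sprouting, and on Flt4 in lymphatic vessels. Angiopoietins act through Tek to stabilise vessels, and platelet-derived growth factor released by endothelium recruits pericytes through Pdgfrb. Smooth muscle cells keep their contractile genes on through serum response factor and its partner myocardin.

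Levels are given as log2(intensity + 1) of the deposited values, and a difference is the mean of YY1bKO minus the mean of control on that scale. It understates the change of dim genes, and levels of different probe sets cannot be set against each other. Array medians of intensity ran from 123.15 to 130.35 and lower quartiles from 29.9 to 31.7. Yy1 itself had log2 values of 10.13, 10.41 and 10.20 in YY1bKO arrays, against 10.33, 10.52 and 10.62 in control arrays, which overlapped (limma adjusted p = 0.574). The sources do not say whether its probe set lies in the deleted part. Ucp1 had values of 10.65, 11.01 and 10.91 in YY1bKO arrays, against 5.71, 5.67 and 5.43 in control arrays, one of 4 genes past an adjusted p of 0.05. Markers of white adipocytes had summed intensities of 9 genes from 52765 to 59897 in YY1bKO and from 41003 to 56513 in control arrays. Their lowest single intensity was 74.3, under the array medians, so the sums do not describe each gene.

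Single arrays stood apart in tissue content. Markers of skin and mammary epithelium (14 of 14 measured) had summed intensities of 453 to 692 in YY1bKO arrays, against 12777 in control replicate 2 and 484 to 496 in the other control arrays. Skeletal muscle markers (12 of 12) summed to 5549 in YY1bKO replicate 1 and to 847 and 1886 in the other YY1bKO arrays, against 594 to 822 in control arrays. Acta1 alone made up 1572 of the 1886 in YY1bKO replicate 3. Averaged as log2 deviations from each gene's own mean, the 12 stood at 2.49, -0.65 and -0.55 in YY1bKO arrays. In control arrays they stood at -0.19, -0.47 and -0.62, so as a list only YY1bKO replicate 1 was high. B cell markers (9 of 10) summed to 3010 to 13148 in YY1bKO and to 7961 to 19923 in control arrays, lowest in YY1bKO replicate 1 and highest in control replicate 3. These sums lean on the bright gene Ighm, at log2 12.88 in control replicate 1. Averaged as log2 deviations, the 9 stood at -2, 1.05 and -0.09 in YY1bKO arrays, against -1.61, 0.76 and 1.89 in control arrays. By that measure replicate 1 was low in both groups. No marker of these lists was at 0 on any array, the lowest intensity being 9.2. The part of such tissue in the results below was not tested.

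No vascular gene passed an adjusted p of 0.05, and the smallest adjusted p among the 35 was 0.293 (limma, Benjamini-Hochberg over all genes). Of all genes tested 0.0323% passed, all higher in YY1bKO. At an unadjusted p under 0.05 by limma, 5 vascular genes were higher in YY1bKO (Robo4, Eng, Lyve1, Tagln and Cnn1), where 8.45% of all genes were, and 1 was lower (Prox1), where 1.99% were. In either direction that was 17.1% of the vascular genes, against 10.4% of all genes. The vascular share rests on 6 genes. Groups lay apart with YY1bKO above control in 3 of the 35, against 11.5% of all genes, and below in 1, against 5%. A level in whole tissue cannot tell fewer cells of a type from less RNA per cell.

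In sign, 30 of the 35 genes had a higher mean in YY1bKO, where 51% of all genes did, and their median log2 difference was 0.25, against 0 over all genes. This lean was shared unevenly between arrays. Control replicate 2 was the lowest of the 6 arrays for 27 of the 35 genes, YY1bKO replicate 3 was the highest for 15 and control replicate 1 for 13. Over all genes control replicate 2 was the lowest in 3463 of 12394. Without control replicate 2, 23 of the 35 genes were higher, the median was 0.10, and 2 were higher at an unadjusted p under 0.05 (Robo4 and Cnn1), where 6.79% of all genes then were. Without control replicate 1 instead, 32 were higher, the median was 0.44, and 14 passed that unadjusted threshold, where 13.2% of all genes did.

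**Figure D1:**
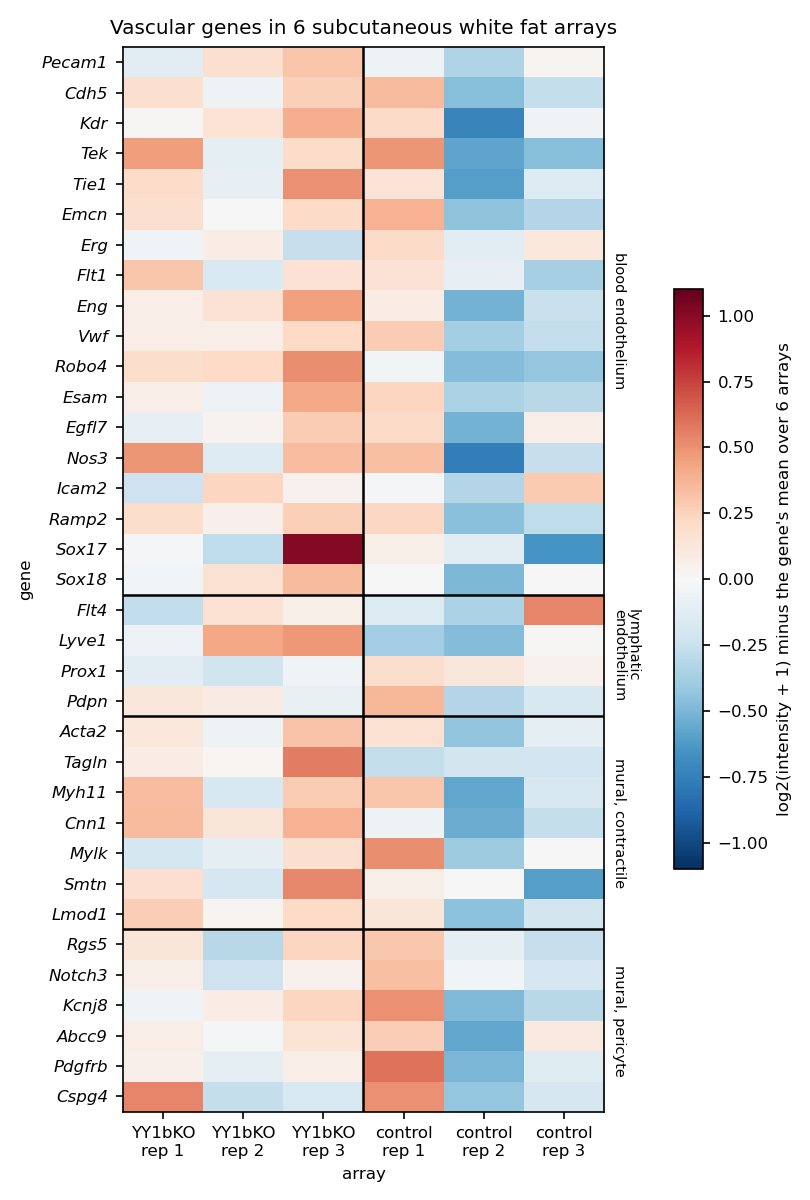
Each row is a vascular gene and each column an array, YY1bKO on the left and control on the right, and colour gives log2(intensity + 1) minus the gene's mean over the 6 arrays. Control replicate 2 was the lowest array for 27 of the 35 genes, while control replicate 1 was the highest for 13 and resembled the YY1bKO arrays.

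The 18 blood endothelial genes leaned highest together with the contractile genes. Of these 18, 17 had a higher mean in YY1bKO, with a median log2 difference of 0.30 and differences from -0.14 to 0.62. Averaged over the 18 genes, the deviation from each gene's own mean was 0.11, 0.03 and 0.31 in YY1bKO arrays, against 0.18, -0.43 and -0.20 in control arrays. The groups overlapped, since control replicate 1 stood above YY1bKO replicates 1 and 2. Without control replicate 2 the median was 0.17 and 15 of 18 were higher, and without control replicate 1 it was 0.50 and 17 of 18 were higher.

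Robo4, a guidance receptor that endothelial cells use to stabilise vessels against permeability signals, had the smallest p of all members. Its log2 values were 8.85, 8.88 and 9.17 in YY1bKO arrays, against 8.63, 8.18 and 8.23 in control arrays. Every YY1bKO array lay above every control array, as in 11.5% of all genes. The difference was 0.62 ± 0.16 (SE; 95% confidence interval 0.23 to 1.01), a 1.54-fold level. Its adjusted p by limma was 0.293. The difference ran from 0.52 to 0.76 when single arrays were left out, lowest without YY1bKO replicate 3. Set against the mean of the other 17 blood endothelial genes in the same array, Robo4 stood at -0.06, 0.05 and 0.05 in YY1bKO arrays, against -0.38, -0.21 and -0.40 in control arrays. Robo4 thus differed more between the groups than the other endothelial genes did on average, by 0.34, a description with no test. Robo4 had the largest difference of the blood endothelial genes, so an excess over the others was fixed in advance.

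Eng encodes endoglin, a co-receptor for transforming growth factor beta and bone morphogenetic proteins on proliferating endothelium. It had log2 values of 9.27, 9.36 and 9.65 in YY1bKO arrays, against 9.28, 8.68 and 8.95 in control arrays. Control replicate 1 reached the lowest YY1bKO array, so the groups overlapped. The difference was 0.46 ± 0.18 (SE), with a limma adjusted p of 0.469, and it was 0.31 without control replicate 2. Its second probe set gave 0.34.

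Promoters from the RefSeq table (build GRCm38.p6) are shown for Robo4, Eng and Cnn1, the blood endothelial and contractile genes at an unadjusted p under 0.05 that the table held. Prox1, whose signal was near the floor of the array, is not shown. Each line gives, 5′ to 3′, the part of the 250 bases before the table's transcript start that lies outside the annotated gene. Capitals mark each GGAA or its complement TTCC, the core bound by ETS factors such as ERG, read on both strands.
Robo4, chr9:37401722-37401901, plus strand: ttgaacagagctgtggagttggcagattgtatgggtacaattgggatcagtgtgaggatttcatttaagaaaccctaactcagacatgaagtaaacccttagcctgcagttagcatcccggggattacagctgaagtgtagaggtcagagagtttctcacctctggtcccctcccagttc
Eng, chr2:32646345-32646594, plus strand: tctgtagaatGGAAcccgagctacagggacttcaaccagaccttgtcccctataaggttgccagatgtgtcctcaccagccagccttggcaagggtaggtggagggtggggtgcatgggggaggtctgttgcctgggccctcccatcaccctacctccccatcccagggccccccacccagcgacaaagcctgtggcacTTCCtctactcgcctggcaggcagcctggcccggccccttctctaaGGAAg
Cnn1, chr9:22099003-22099220, plus strand: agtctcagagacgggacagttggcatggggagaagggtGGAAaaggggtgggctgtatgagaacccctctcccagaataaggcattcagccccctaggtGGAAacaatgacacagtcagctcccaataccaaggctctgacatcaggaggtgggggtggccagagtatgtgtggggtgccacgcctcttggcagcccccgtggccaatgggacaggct
Each searched window of 250 bases held 3 such cores. In Eng they began 240, 51 and 5 bases before the gene, and in Cnn1 2 began 180 and 119 bases before it. The third core of Cnn1 and all 3 of Robo4 reached into the last 32 and 70 bases of their windows, which the annotation counts to the gene and which are not shown. The core alone is too short to set these genes apart, since 93.4% of the 32851 promoters in the table held it. Of the 35 members 22 had a promoter there, Tagln, Lyve1 and 11 others having none. The longer form CAGGAA or TTCCTG, which contains the core, stood in 7 of 13 promoters of 9 blood endothelial genes (53.8%), against 25.7% of all promoters. It stood in 0 of 4 promoters of lymphatic genes, in 0 of 5 of contractile genes and in 3 of 5 of pericyte genes. Promoters of 1 gene are not independent, and by gene it stood in 6 of the 9, against 7652 of 27025 over all promoters. CCGGAA or TTCCGG stood in 1 of the 13 and in 2 of the 5 contractile ones, against 12% of all. A CArG box, the element of serum response factor, was found in 0 of the 5 contractile promoters and in 1.47% of all promoters. These are matches of letters in one window and say nothing about binding.

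Receptors for vascular growth factors had higher means in YY1bKO on the probe sets used, with overlapping groups. Kdr, the main signalling receptor for vascular endothelial growth factor A, had log2 values of 9.52, 9.66 and 9.91 in YY1bKO arrays, against 9.72, 8.78 and 9.47 in control arrays. Its difference of 0.37 ± 0.26 (SE) became 0.10 without control replicate 2. Flt1, a decoy receptor that binds the same ligand, had 8.87, 8.40 and 8.72 in YY1bKO arrays, against 8.72, 8.47 and 8.20 in control arrays. Its 3 probe sets differed in sign, at 0.20, -0.20 and -0.17, so no direction can be given for Flt1. Tek, the angiopoietin receptor, had 9.49, 8.93 and 9.23 in YY1bKO arrays, against 9.51, 8.45 and 8.56 in control arrays, a difference of 0.38 ± 0.31 (SE). Tie1, its partner receptor, had 6.92, 6.63 and 7.22 in YY1bKO arrays, against 6.87, 6.11 and 6.57 in control arrays, a difference of 0.41 ± 0.24 (SE). Without control replicate 2 the differences of Tek and Tie1 were 0.18 and 0.21, and without control replicate 3 that of Flt1 was 0.07. In each of these 4 genes control replicate 1 lay within or above the YY1bKO range. The limma adjusted p of these 4 genes ran from 0.629 for Tie1 to 0.763 for Flt1.

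Genes of endothelial junctions and adhesion had differences of 0.03 to 0.28. Cdh5, the cadherin of endothelial junctions, had 10.18, 9.94 and 10.26 in YY1bKO arrays, against 10.35, 9.53 and 9.74 in control arrays. Pecam1, the platelet and endothelial adhesion molecule, had 8.12, 8.42 and 8.55 in YY1bKO arrays, against 8.19, 7.92 and 8.28 in control arrays. Control replicate 1 had the highest Cdh5 value of all arrays, and the Pecam1 ranges crossed as well. Esam, another junctional adhesion molecule, had a difference of 0.28 ± 0.20 (SE) and Icam2, an adhesion molecule for leukocytes, one of 0.03 ± 0.20 (SE; 95% confidence interval -0.44 to 0.51). Icam2 was highest in control replicate 3, the array with the most B cell signal. Emcn, a sialomucin of capillaries and veins, differed by 0.26 and Vwf, the clotting factor stored in endothelial granules, by 0.24. Without control replicate 2 the differences were 0.08 for Cdh5, 0.13 for Pecam1, 0.10 for Emcn, 0.12 for Vwf and -0.12 for Icam2, and without YY1bKO replicate 3 that of Esam was 0.14. All 6 genes overlapped between groups, with limma adjusted p from 0.676 (Pecam1) to 0.971 (Icam2).

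Nos3, the endothelial nitric oxide synthase, had log2 values of 9.28, 8.65 and 9.13 in YY1bKO arrays, against 9.12, 8.03 and 8.54 in control arrays. The difference of 0.46 ± 0.31 (SE) became 0.19 without control replicate 2 and 0.74 without control replicate 1. Ramp2, which pairs with the receptor for adrenomedullin, had 10.30, 10.17 and 10.37 in YY1bKO arrays, against 10.34, 9.65 and 9.83 in control arrays. For both genes control replicate 1 stood inside the YY1bKO range and the other control arrays below it. The Ramp2 difference of 0.34 ± 0.19 (SE) became 0.19 without control replicate 2. Egfl7, a secreted endothelial matrix factor, differed by 0.15 ± 0.21 (SE), with 4 probe sets from 0.15 to 0.35, and by -0.06 without control replicate 2.

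The endothelial transcription factors differed in sign. Sox17, a factor of arterial identity, had 9.62, 9.36 and 10.65 in YY1bKO arrays, against 9.71, 9.52 and 8.99 in control arrays. YY1bKO replicate 3 alone was high, and the difference of 0.47 ± 0.37 (SE) became 0.09 without it. Sox18, which acts in both blood and lymphatic endothelium, had 9.43, 9.63 and 9.81 in YY1bKO arrays, against 9.47, 8.97 and 9.46 in control arrays, a difference of 0.32 ± 0.18 (SE; limma adjusted p = 0.608) that became 0.16 without control replicate 2. Erg, the ETS factor that keeps endothelial identity, was the blood endothelial gene with a lower mean in YY1bKO. It had 5.52, 5.64 and 5.30 in YY1bKO arrays, against 5.77, 5.44 and 5.67 in control arrays, a difference of -0.14 ± 0.14 (SE; limma adjusted p = 0.778), and of -0.05 without YY1bKO replicate 3.

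**Figure D2:**
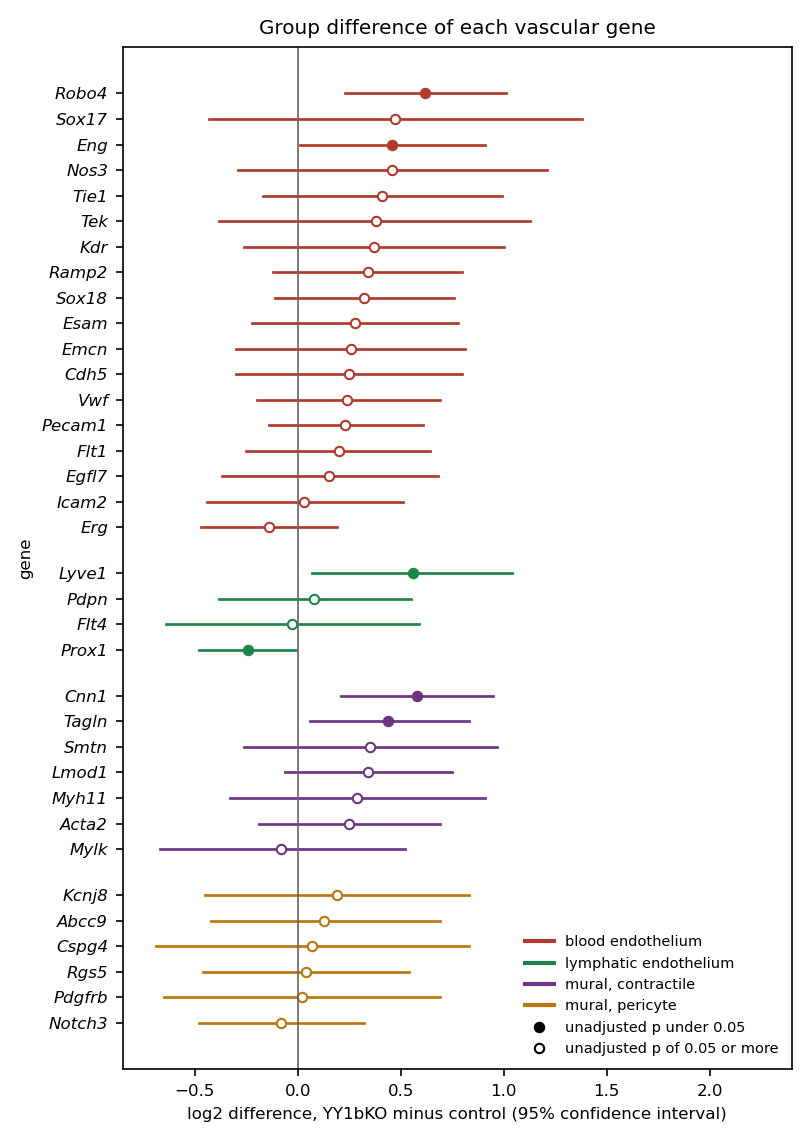
Points give the log2 difference of YY1bKO minus control for each of the 35 genes by class, lines its 95% confidence interval, and filled points an unadjusted p under 0.05 (Robo4, Eng, Lyve1, Prox1, Cnn1 and Tagln). Of the 18 blood endothelial genes 17 lie right of 0, while the 6 pericyte genes lie between -0.08 and 0.19.

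The 4 lymphatic genes did not move together, with a median log2 difference of 0.03. Lyve1, the hyaluronan receptor of lymphatic capillaries, which some tissue macrophages also express, had log2 values of 10.11, 10.60 and 10.65 in YY1bKO arrays, against 9.80, 9.70 and 10.19 in control arrays. Control replicate 3 lay above YY1bKO replicate 1, so the groups overlapped. The difference was 0.56 ± 0.20 (SE; 95% confidence interval 0.07 to 1.04), and its second probe set gave 0.50. Its adjusted p by limma was 0.430. Macrophage markers (11 of 11) summed to 16397 to 19577 in YY1bKO and to 13648 to 21169 in control arrays, and their part in the Lyve1 value was not tested.

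Prox1, the transcription factor that defines lymphatic identity, was close to the floor of the array. It had log2 values of 3.12, 3.02 and 3.20 in YY1bKO arrays, against 3.43, 3.36 and 3.28 in control arrays. Every YY1bKO array lay below every control array, as in 5% of all genes, but all 6 intensities were between 7.1 and 9.8, under the lower quartile of their array. The lymphatic label therefore rests on Flt4, Lyve1 and Pdpn here. Flt4, the receptor for vascular endothelial growth factor C, had 7.31, 7.74 and 7.64 in YY1bKO arrays, against 7.43, 7.23 and 8.11 in control arrays. Pdpn, podoplanin, which fibroblasts of lymph nodes also carry, had 8.84, 8.80 and 8.63 in YY1bKO arrays, against 9.08, 8.39 and 8.54 in control arrays. Flt4 was highest in control replicate 3 and Pdpn in control replicate 1, and the differences of -0.03 ± 0.25 and 0.08 ± 0.19 (SE) had limma adjusted p of 0.982 and 0.913. Markers of lymph node stroma and high endothelial venules (5 of 8) summed to 276, 2696 and 1249 in YY1bKO arrays, against 187, 1631 and 4111 in control arrays, highest where Flt4 was highest. The part of lymph node tissue in the Flt4 value was not tested.

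The mural genes are given by function. Of the 7 contractile genes 6 had a higher mean in YY1bKO, with a median log2 difference of 0.34, while the 6 pericyte genes had a median of 0.05. The contractile genes, averaged over their deviations, stood at 0.16, -0.05 and 0.35 in YY1bKO arrays, against 0.12, -0.37 and -0.22 in control arrays. The pericyte genes stood at 0.14, -0.14 and 0.09 in YY1bKO arrays, against 0.42, -0.35 and -0.16 in control arrays, so that 1 control array was the highest and another the lowest. Whether contractile and pericyte genes differ from each other in their response was not tested.

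Cnn1, calponin, an actin-binding protein of differentiated smooth muscle, had log2 values of 5.65, 5.43 and 5.68 in YY1bKO arrays, against 5.24, 4.75 and 5.04 in control arrays. All 3 YY1bKO arrays were above all 3 control arrays, as in 11.5% of all genes. The difference was 0.58 ± 0.15 (SE; 95% confidence interval 0.21 to 0.95), a 1.49-fold level, with a limma adjusted p of 0.295. Its intensities ran from 25.9 to 50.3, and control replicate 2 lay under the lower quartile of its array, so the size is not exact. Against the mean of the other 6 contractile genes Cnn1 stood at -3.33, -3.34 and -3.51 in YY1bKO arrays, against -3.76, -3.76 and -3.59 in control arrays, a difference of 0.31 that was not tested. Cnn1 too had the largest difference of its class, so such an excess was fixed in advance.

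Tagln, transgelin, an early marker of smooth muscle, had log2 values of 9.97, 9.91 and 10.45 in YY1bKO arrays, against 9.63, 9.69 and 9.68 in control arrays. The groups did not overlap, with YY1bKO above as in 11.5% of all genes, and the control arrays agreed closely with an SD of 0.03. The difference of 0.44 ± 0.16 (SE), a 1.36-fold level with a limma adjusted p of 0.421, became 0.27 without YY1bKO replicate 3. Tagln was the lowest in control replicate 1, the array that was highest for 1 of the 7 contractile genes and 5 of the 6 pericyte genes.

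Acta2, smooth muscle actin, had log2 values of 11.44, 11.27 and 11.64 in YY1bKO arrays, against 11.49, 10.89 and 11.22 in control arrays. Myh11, the smooth muscle myosin heavy chain, had 8.62, 8.11 and 8.56 in YY1bKO arrays, against 8.59, 7.71 and 8.11 in control arrays. In both, control replicate 1 matched the YY1bKO arrays, and the differences of 0.25 ± 0.18 and 0.29 ± 0.26 (SE) became 0.10 and 0.08 without control replicate 2. The second probe set of Myh11 gave -0.03. Smtn, smoothelin, and Lmod1, a leiomodin that nucleates actin, had differences of 0.35 ± 0.25 and 0.34 ± 0.17 (SE), with limma adjusted p of 0.701 and 0.559. The Smtn difference was 0.14 without control replicate 3, and that of Lmod1 was 0.21 without control replicate 2. Mylk, the myosin light chain kinase, had 10.01, 10.10 and 10.38 in YY1bKO arrays, against 10.71, 9.81 and 10.20 in control arrays. Its difference of -0.08 ± 0.24 (SE) had no stable sign, since the 3 probe sets ran from -0.08 to 0.10. Some contractile genes, Acta2 among them, are also made by mammary myoepithelium. Acta2 was lowest in control replicate 2, where the epithelial markers were highest, and the part of epithelial tissue in the contractile values was not tested.

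On the probe sets used, pericyte genes lay close to 0 in difference, with wide spread among the control arrays. Rgs5, a regulator of G protein signalling abundant in pericytes, had 12.38, 11.94 and 12.48 in YY1bKO arrays, against 12.54, 12.15 and 11.99 in control arrays. Its 4 probe sets gave differences from -0.45 to 0.11. Pdgfrb, the receptor by which pericytes are recruited, had 9.76, 9.60 and 9.77 in YY1bKO arrays, against 10.30, 9.20 and 9.57 in control arrays. The SD of Pdgfrb was 0.10 in YY1bKO arrays and 0.56 in control arrays, and its difference of 0.02 ± 0.28 (SE) had a 95% confidence interval of -0.65 to 0.69. The second probe set of Pdgfrb gave 0.24. Notch3, the Notch receptor of mural cells, had 9.30, 9.01 and 9.28 in YY1bKO arrays, against 9.57, 9.21 and 9.05 in control arrays, a difference of -0.08 ± 0.16 (SE).

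Kcnj8 and Abcc9 encode the pore and the sulfonylurea receptor of the vascular ATP-sensitive potassium channel. Kcnj8 had 8.49, 8.61 and 8.76 in YY1bKO arrays, against 9.03, 8.04 and 8.22 in control arrays, and Abcc9 had 6.12, 6.02 and 6.19 in YY1bKO arrays, against 6.31, 5.47 and 6.15 in control arrays. Both channel genes were highest in control replicate 1 and lowest in control replicate 2. Cspg4, the proteoglycan NG2, had 8.75, 7.95 and 8.05 in YY1bKO arrays, against 8.72, 7.79 and 8.03 in control arrays, with SDs of 0.43 in YY1bKO arrays and 0.48 in control arrays. Its second probe set gave -0.01. The limma adjusted p of the 6 pericyte genes ran from 0.849 to 0.988. These intervals reach from -0.69 to 0.83, so they do not show that pericyte genes were alike in the groups.

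**Figure D3:**
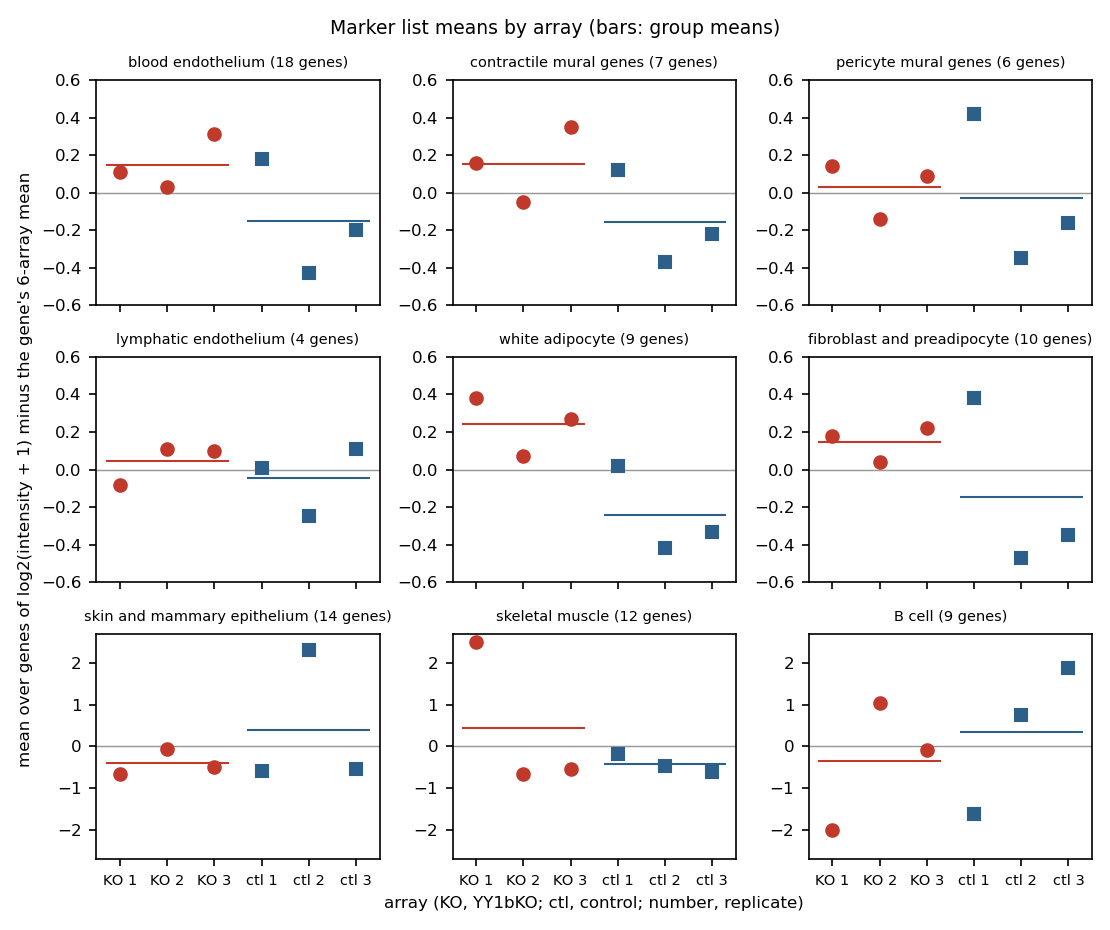
Each panel plots, for 1 marker list, the mean over its genes of log2(intensity + 1) minus the gene's mean over 6 arrays, with YY1bKO arrays as circles, control arrays as squares and bars for group means; the lower row has a wider axis. The blood endothelial and contractile means were lowest in control replicate 2 (-0.43 and -0.37), the array with the highest epithelial mean (2.32), and pericyte genes were highest in control replicate 1 (0.42).

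The vascular means ran alongside those of other fat cells. Fibroblast and preadipocyte genes (10 of 12) averaged 0.18, 0.04 and 0.22 in YY1bKO arrays, against 0.38, -0.47 and -0.35 in control arrays. The blood endothelial, contractile, pericyte and white adipocyte means had the same order of control arrays. White adipocyte genes (9 of 11) averaged 0.38, 0.07 and 0.27 in YY1bKO arrays, against 0.02, -0.42 and -0.33 in control arrays. Control replicate 2 thus had the lowest mean of vascular, fibroblast and white adipocyte genes alike, beside an epithelial mean of 2.32. Whether epithelial tissue in that sample lowered the share of vascular RNA was not tested. Without both control replicate 2 and YY1bKO replicate 1, an alternative chosen after seeing the data, the medians were 0.16 for blood endothelium, 0.16 for contractile and -0.15 for pericyte genes.

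**Figure D4:**
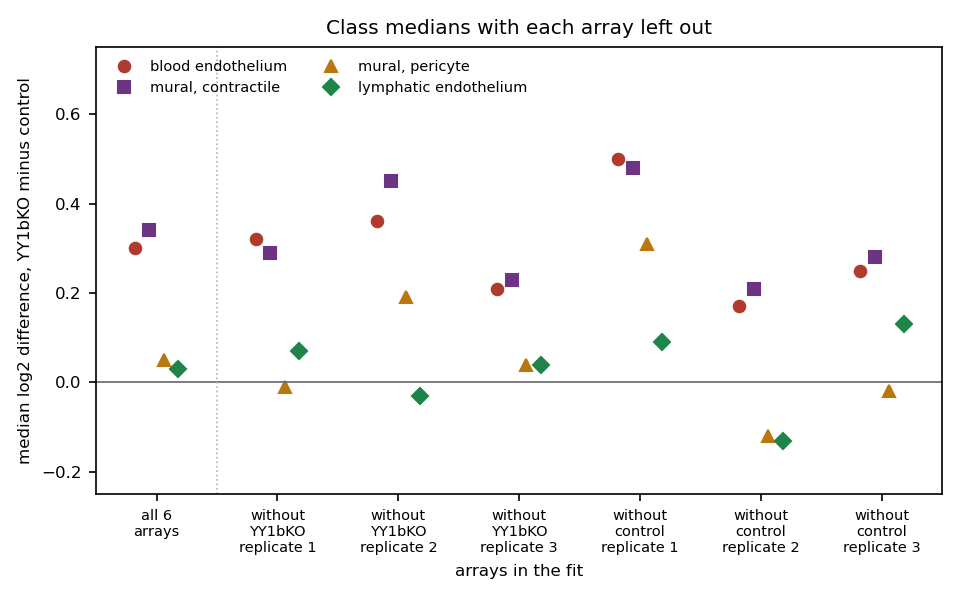
The y axis gives the median log2 difference of YY1bKO minus control of each class, with all 6 arrays on the left and with each array left out in turn on the right. Blood endothelial medians stayed between 0.17 and 0.50 and contractile ones between 0.21 and 0.48, while pericyte medians ran from -0.12 to 0.31 and lymphatic ones from -0.13 to 0.13.

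Genes outside the 35 with a bearing on vessels, not all of them particular to vessel cells, were read from 9 lists with 154 measured genes. Of these, 0 passed an adjusted p of 0.05 by limma (smallest 0.201). At an unadjusted p under 0.05, 14 were higher (9.09%, against 8.45% of all genes) and 2 lower (1.3%, against 1.99%), shares near those of all genes. Of 16 measured genes of capillary fatty acid handling 14 had a higher mean in YY1bKO and 4 were higher at an unadjusted p under 0.05 by limma, 25% of the list against 8.45% of all genes. Of the 9 white adipocyte genes 8 had a higher mean and 4 (44.4%) were higher at that threshold. The part of adipocyte RNA in the capillary list was not tested. Rgcc, a cell cycle regulator abundant in fat capillaries, had log2 values of 12.53, 12.31 and 12.42 in YY1bKO arrays, against 12.02, 11.77 and 11.84 in control arrays. Car4, the membrane-bound carbonic anhydrase of capillary endothelium, had 9.30, 9.36 and 9.78 in YY1bKO arrays, against 9.22, 8.10 and 8.38 in control arrays. Aqp7, the glycerol channel of adipocytes and fat capillaries, had 10.35, 10.11 and 10.21 in YY1bKO arrays, against 10.00, 9.05 and 9.15 in control arrays. In Rgcc, Car4 and Aqp7 every YY1bKO array lay above every control array, as in 5 of the 16 genes and in 11.5% of all genes. The differences were 0.55 ± 0.11 for Rgcc (limma adjusted p = 0.201), 0.91 ± 0.31 for Car4 (0.397) and 0.83 ± 0.26 for Aqp7 (0.366), all with SE. The second probe set of Rgcc gave 0.08. Slc27a3, a fatty acid transport protein, differed by 0.31 ± 0.10 (SE). Without control replicate 2, 1 of these 16 genes (Rgcc) was still higher at an unadjusted p under 0.05, at 0.49.

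**Figure D5:**
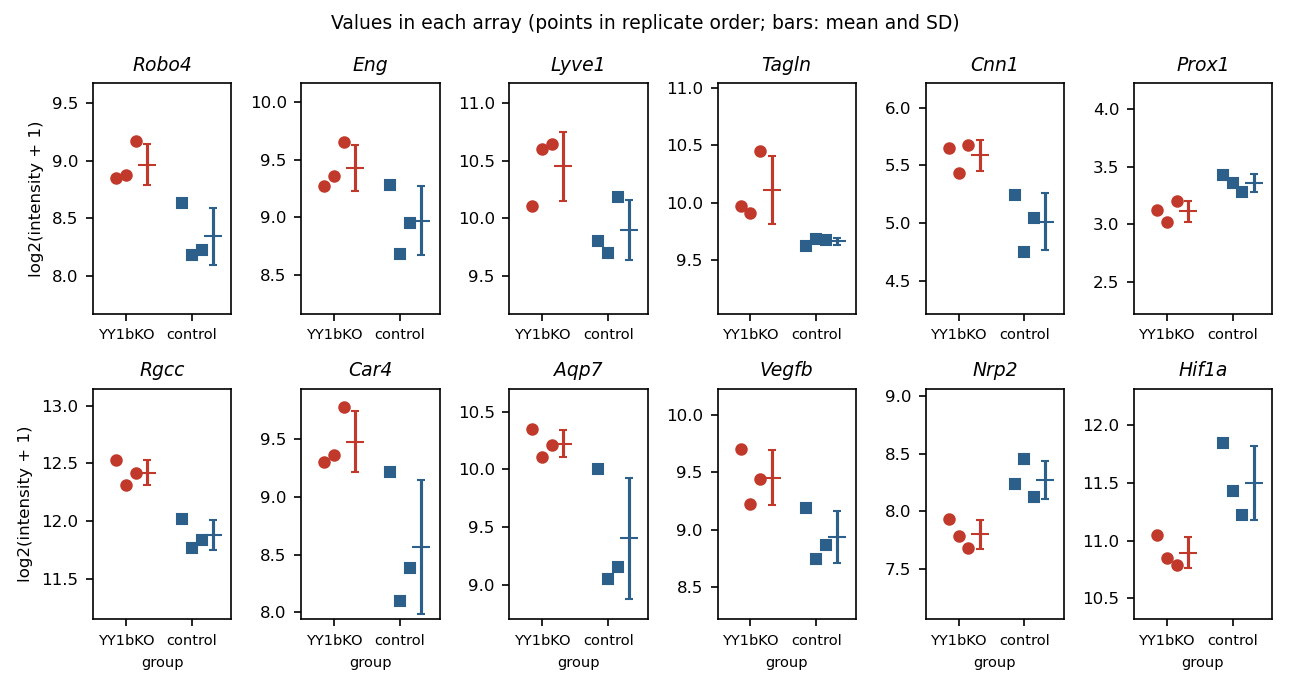
Each panel shows log2(intensity + 1) in the 3 YY1bKO arrays (circles) and the 3 control arrays (squares), with the mean and SD beside them, over an axis span that is the same in all panels. Groups were apart in Robo4, Tagln, Cnn1, Prox1, Rgcc, Car4, Aqp7, Vegfb, Nrp2 and Hif1a and overlapped in Eng and Lyve1. Over all genes, groups were apart with YY1bKO above control in 11.5% and below in 5%.

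Among 30 other endothelial genes 20 were higher and 10 lower, with a median log2 difference of 0.11. Notch4, the endothelial Notch receptor (0.61 ± 0.22), Procr, the protein C receptor (0.56 ± 0.19), and Acvrl1, the kinase receptor that pairs with endoglin (0.50 ± 0.19), were higher at an unadjusted p under 0.05, all with SE. These were 10% of the list, near the 8.45% of all genes. The Notch4 difference was 0.39 without YY1bKO replicate 3, and its second probe set gave 0.03. Of 22 ligands for vessel growth 15 were higher, and Vegfb, a growth factor that binds Flt1, reached that threshold alone, 4.55% of the list. Vegfb had log2 values of 9.70, 9.22 and 9.44 in YY1bKO arrays, against 9.19, 8.75 and 8.87 in control arrays (difference 0.52 ± 0.17, SE; limma adjusted p = 0.391). The other ligands of the list, Vegfa among them, did not reach it. Vegfa had the largest rise of the list, 0.72 ± 0.40 (SE; limma adjusted p = 0.606), and overlapping groups. Its log2 values were 9.04, 8.88 and 9.98 in YY1bKO arrays, against 9.25, 8.29 and 8.20 in control arrays, and its second probe set gave 0.26.

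Of 28 other mural genes 16 were higher and 12 lower, with a median of 0.05. Mustn1, a small nuclear protein of muscle (0.53 ± 0.15), and Rcan2, a calcineurin regulator (0.51 ± 0.18), were higher at an unadjusted p under 0.05, both with SE. These were 7.14% of the list, under the 8.45% of all genes. The second probe set of Rcan2 gave 0.15. Of 14 partners and targets of serum response factor 5 were higher and 9 lower, and 0 reached an unadjusted p under 0.05 by limma, with a smallest adjusted p of 0.495. In 3 of the 14 (Srf, Actb and Actg1) every YY1bKO array lay below every control array, as in 5% of all genes, and in 0 above. The Srf difference was -0.21 ± 0.11 (SE), but its second probe set gave 0.18. The 5 probe sets of Actb ran from -0.28 to 0.12. Whether these lists differ from the contractile members was not tested. Of 14 basement membrane genes 10 were higher, 7 of 14 without control replicate 2, and Lamb2, a laminin chain, differed by 0.45 ± 0.17 (SE).

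Lymphatic and venous genes went both ways. Of 9 other lymphatic genes 4 were higher and 5 lower, with 2 higher (Stab1 and Foxc2) and 1 lower (Nrp2) at an unadjusted p under 0.05, where 8.45% of all genes were higher and 1.99% lower. Such small counts say little of the list. Nrp2, a coreceptor for vascular endothelial growth factor C, had log2 values of 7.93, 7.79 and 7.68 in YY1bKO arrays, against 8.24, 8.45 and 8.12 in control arrays. The groups were apart, with YY1bKO below as in 5% of all genes. The Nrp2 difference was -0.47 ± 0.13 (SE; limma adjusted p = 0.299), with -0.38 without control replicate 2. Stab1, a scavenger receptor of lymphatic endothelium and macrophages, differed by 0.41 ± 0.16 (SE), and by 0.25 without control replicate 2. Foxc2, a factor of lymphatic valves, had intensities of 12.5 to 16.9, under the lower quartile of its array in all 6, so no size is given for it. Of 11 genes of activated and venous endothelium 5 were higher and 6 lower, and 0 reached an unadjusted p under 0.05 by limma (smallest adjusted p 0.505).

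Of 13 hypoxia response genes 7 were higher and 6 lower. Hif1a, the oxygen-regulated subunit of hypoxia-inducible factor, had log2 values of 11.05, 10.85 and 10.79 in YY1bKO arrays, against 11.85, 11.43 and 11.22 in control arrays. Bnip3, a mitophagy receptor induced in hypoxia, had 13.23, 13.12 and 13.40 in YY1bKO arrays, against 12.89, 12.58 and 12.74 in control arrays. The groups were apart in both genes and in opposite directions, at -0.60 ± 0.18 for Hif1a (limma adjusted p = 0.339) and 0.51 ± 0.12 for Bnip3 (0.273), with SE. Of all genes 5% lay below control without overlap, as Hif1a did, and 11.5% above, as Bnip3 did. The 4 probe sets of Hif1a ran from -0.60 to -0.18.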

How the data were processed

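Total RNA of 6 samples was measured on Affymetrix mouse arrays (per the labels). The authors summarised probe sets with RMA, per the submitters' processing notes, and deposited 1 intensity per probe set and sample. Its scale, read from the range of 5.4 to 25730.1, is linear. RMA equalises the distributions of the arrays, which hides shifts in total RNA. The number of arrays limits the precision.

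Of 22690 probe sets 20393 carried 1 gene symbol in the platform annotation, 691 several and 1606 none. Only the first were named, and 20364 matched a gene in RefSeq (GRCm38.p6). Values were analysed as log2(intensity + 1) with limma 3.58.1 in R 4.3.3 (lmFit, eBayes, 2-sided, Benjamini-Hochberg over 12394 genes), with no filter, and the code was tested on simulated data. Members and lists were chosen with earlier results of these data known. The text names every member, Yy1, Ucp1 and, of each pathway list, up to 4 genes with the smallest p among those at an unadjusted p under 0.05. A few other genes are named for context. Confidence intervals are at 95%. Alternatives changed the normalization, pseudocount, filter, probe set, variance prior, array weights, replicate block and arrays.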

Additional observations from a re-analysis of the deposited data

How the results depend on the processing

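Of 19 alternatives none brought a vascular gene past an adjusted p of 0.05 (smallest limma adjusted p 0.129), and the sign of 22 of the 35 held in all 19. The filters, the variance prior and the replicate block leave each log2 difference as it was, so these could not turn a sign. The count of all genes past the threshold, 4, became 9 with a pseudocount of 16, 2 without genes below the 50th percentile, 7 with the probe set of largest SD, 12 with robust eBayes, 9 with array weights, 1 with the replicate block, 1 without both control replicate 2 and YY1bKO replicate 1 (chosen after seeing the data), and 1 to 5 when single arrays were left out. Quantile normalization gave Rgs5 -0.01 and Pdgfrb -0.02. The mean of all probe sets gave Flt1 -0.06, Mylk 0.04 and Rgs5 -0.06, and the probe set of largest SD gave Flt1 -0.20, Mylk 0.09, Rgs5 -0.45, Notch3 0.00 and Cspg4 -0.01. Array weights gave Mylk 0.05. Without both arrays named above Pdpn was -0.10, Myh11 -0.02, Rgs5 -0.06, Abcc9 -0.13, Pdgfrb -0.25 and Cspg4 -0.37. Single arrays left out gave ranges of -0.06 to 0.30 for Egfl7, -0.12 to 0.18 for Icam2, -0.21 to 0.23 for Flt4, -0.05 to 0.29 for Pdpn, -0.29 to 0.16 for Mylk, -0.08 to 0.20 for Rgs5, -0.19 to 0.07 for Notch3, 0.00 to 0.49 for Kcnj8, -0.12 to 0.30 for Abcc9, -0.23 to 0.32 for Pdgfrb and -0.18 to 0.34 for Cspg4. The cause of these changes was not tested. Same-numbered arrays deviated with correlations of 0.61, 0.10 and 0.03 for numbers 1, 2 and 3. The labels do not say what the number marks, so a pairing of samples can be neither assumed nor excluded. With the replicate block 6 vascular genes were higher at an unadjusted p under 0.05, where 8.61% of all genes were, and the 1 lower call (Prox1) was lost. The class medians were those without the block, which the balanced design fixes in advance. The lymphatic median ran from -0.13 to 0.13 when single arrays were left out. The median of all genes moved by at most 0.05 under any alternative. Dim values, as of Prox1 and Cnn1, limit the size of their differences.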
